A study of Mus musculus with 4 samples.

Results

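Gonadal supporting cells are the somatic cells that surround the germ cells of the fetal gonad, the pregranulosa cells in an ovary. The 9 genes described here (Wt1, Nr5a1, Rspo1, Wnt4, Amhr2, Irx3, Nr2f2, Emx2 and Lhx9) are a named list of genes of the somatic gonad, out of 21631 protein-coding genes on the mouse autosomes and X. Their open chromatin was read from ATAC-seq, in which the Tn5 transposase cuts accessible DNA, of cells from fetal ovaries of C57BL/6J mice at E14.5 (E, embryonic day), with about 10000 cells per library. The cells had been enriched for germ cells by beads that bind SSEA1, a carbohydrate on the surface of young germ cells, so supporting cells are not the population the beads select, although the labels call the cell type ovarian cells. Of the 4 samples, 2 were Gata2WT and 2 were Gata2cKO, in which Cre recombinase from Prdm1, a germ lineage gene, acts on floxed Gata2. The dams were homozygous for floxed Gata2, so embryos of both groups inherited a floxed allele, and whether Gata2WT embryos carried Cre, how many embryos made a sample and which cells had recombined are not stated in the labels. The deposited data were 1 peak list per genotype, each combined from its 2 samples. The lists therefore hold no replicate error and allow no test between genotypes, and a site absent from a list was below the authors' threshold in that pool and is not thereby shown to be closed.

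As background, the gonad forms from a thickening of the coelomic epithelium, and WT1, NR5A1, EMX2 and LHX9 are transcription factors without which that ridge does not form or does not survive. In the XX gonad, R-spondin 1 and WNT4 are secreted signals that hold supporting cells on the ovarian path through beta-catenin, and R-spondin acts by binding LGR receptors and drawing ZNRF3 and RNF43, which remove WNT receptors, off the membrane. IRX3 is a homeodomain factor of pregranulosa cells, NR2F2 (COUP-TFII) a nuclear receptor of gonadal stroma, and AMHR2 the receptor for anti-Mullerian hormone.

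Peaks were given to a gene when they lay within 1 kb of its body or ends, or when the nearest protein-coding gene end within 100 kb was that gene's. Noncoding genes did not enter this rule. Many peaks of the 9 genes also lie within 1 kb of a noncoding gene and cannot be given to one gene alone. A gene end means the first or last annotated base, in genome order whatever the strand, with 1 kb on either side. A peak of one list that overlapped no peak of the other by at least 1 bp is called WT-only or cKO-only. The strength of a peak is its −log10 q against the local background of the same pool, as the authors' peak caller gave it, and it ranks peaks within a list only. There were 49394 Gata2WT and 44139 Gata2cKO peaks, with a median pileup at the summit of 19 fragments in each and a genome background of 2.19 and 2.01 fragments. Of 14 germ cell markers, 12 carried gene-end peaks in both lists, 1 (Pou5f1) in the Gata2WT list alone and 1 (Nanos3) in neither. Over all coding genes 62.8% carried them in both, and so did 15 of 17 further genes of the gonad and pregranulosa cells and 8 of 9 stromal genes, so this count does not identify the cell type.

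The 9 genes had more listed sites in Gata2WT than in Gata2cKO, and most of the sites found in Gata2WT alone were weak and away from gene ends. The Gata2WT list gave them 51 peaks and the Gata2cKO list 32. Of the 51, 21 were WT-only (41.2%, 95% Wilson interval 28.8 to 54.8, counting error only), against 28.5% of all Gata2WT peaks. Of the 32, 1 was cKO-only (3.12%, 0.554 to 15.7), against 19.7% of all Gata2cKO peaks. WT-only peaks outnumbered cKO-only peaks at 8 of the 9 genes, Lhx9 having neither, against 45.3% of the 11323 coding genes with at least 2 Gata2WT peaks. That comparison is not like for like, since a gene with more peaks has more that can be WT-only. All members but Amhr2 and Lhx9 had 5 or more Gata2WT peaks, as did 18.5% of coding genes with any peak. No share was computed for genes with like numbers of peaks. The WT-only count fell to 8 of 25 (32.0%) when each peak went to the nearest end of any gene, noncoding ones included, to 13 of 33 (39.4%) with a distal limit of 20 kb and to 9 of 25 (36.0%, against 20.2% of all peaks) when both lists were held to a −log10 q of 5 or more. With the lists at equal length, 21 of 50 were WT-only (42.0%, against 23.1% of all Gata2WT peaks) and 2 of 32 cKO-only (6.25%, against 22.8% of all Gata2cKO peaks). In pooled cells, fewer cells of a type and less open chromatin per cell cannot be told apart.

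**Figure D1:**
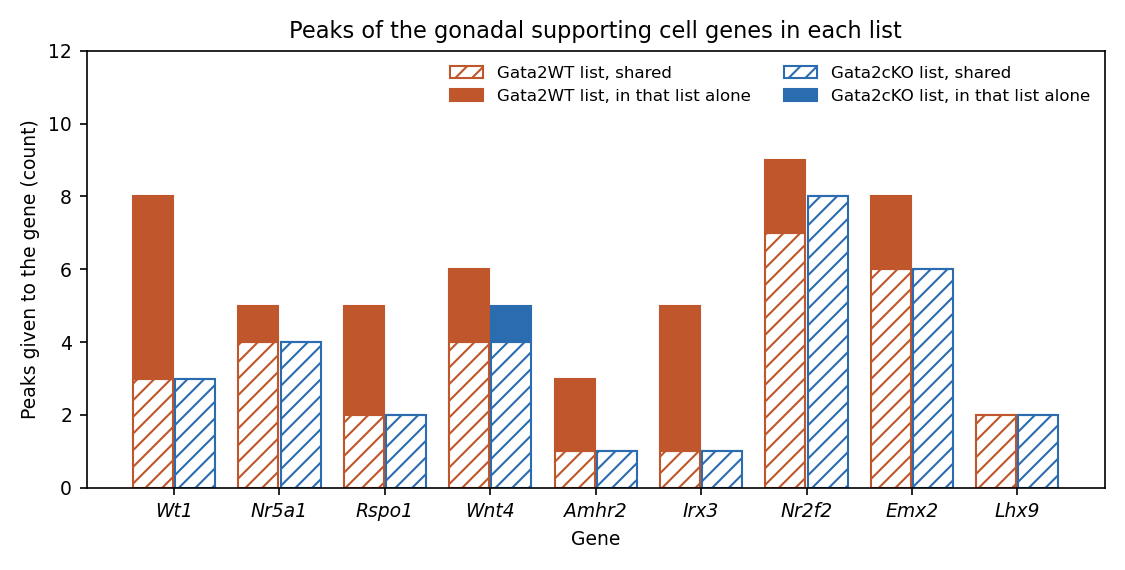
Number of peaks given to each of the 9 genes (y axis, count) in the Gata2WT list (orange) and the Gata2cKO list (blue), with hatched parts for peaks shared with the other list and solid parts for peaks in that list alone. Wt1 and Irx3 carried the most solid orange, 5 and 4 peaks, and Wnt4 alone had a solid blue part, 1 peak.

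Promoter sequence shows where these peaks sat against the annotated starts. RefSeq (GRCm38.p6) gave a promoter for 7 of the 9 genes, all but Wt1 and Nr5a1, and the 250 bases before the start were read 5′ to 3′ on the strand of the gene. Those of Irx3 and Emx2 lay wholly under a peak in both lists, that of Rspo1 wholly under a peak in the Gata2WT list alone, and those of Wnt4, Amhr2, Nr2f2 and Lhx9 met no peak in either. Among all 21045 promoters of coding genes, 56.4% met a peak in both lists, 2.35% in the Gata2WT list alone and 1.41% in the Gata2cKO list alone. The promoters of 4 genes are shown. Those of Rspo1 and Emx2 were covered in 1 list or both, and those of Wnt4 and Amhr2 had a single-list peak close by on 1 side. Capitals mark matches to the motifs searched.
Rspo1: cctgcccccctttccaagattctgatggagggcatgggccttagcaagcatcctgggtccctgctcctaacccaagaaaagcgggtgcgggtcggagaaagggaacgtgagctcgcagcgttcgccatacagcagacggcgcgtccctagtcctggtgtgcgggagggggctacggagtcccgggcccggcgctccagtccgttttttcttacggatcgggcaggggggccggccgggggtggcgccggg
Emx2: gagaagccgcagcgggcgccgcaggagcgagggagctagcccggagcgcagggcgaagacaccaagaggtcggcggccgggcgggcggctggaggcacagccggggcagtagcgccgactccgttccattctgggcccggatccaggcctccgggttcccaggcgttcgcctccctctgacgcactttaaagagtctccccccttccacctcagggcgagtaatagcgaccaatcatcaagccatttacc
Wnt4: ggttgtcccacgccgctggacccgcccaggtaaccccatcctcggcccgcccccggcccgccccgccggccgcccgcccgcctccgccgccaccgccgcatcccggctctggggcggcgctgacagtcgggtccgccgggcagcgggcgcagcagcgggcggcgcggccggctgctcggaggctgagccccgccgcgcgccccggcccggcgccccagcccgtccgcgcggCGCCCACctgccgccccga
Amhr2: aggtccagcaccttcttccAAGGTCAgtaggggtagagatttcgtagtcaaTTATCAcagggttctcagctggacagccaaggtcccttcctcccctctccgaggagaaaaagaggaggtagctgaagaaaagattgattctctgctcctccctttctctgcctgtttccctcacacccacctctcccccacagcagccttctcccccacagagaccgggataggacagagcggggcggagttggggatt
They lie at chr4:124986180-124986429, chr19:59458440-59458689, chr4:137277385-137277634 and chr15:102445117-102445366, all on the plus strand. Rspo1 held 22 CpG sites, Emx2 24 and Wnt4 44, against a median of 10 over promoters of coding genes, while Amhr2 held 5.

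Motifs were searched on both strands as exact letters. A GATA match was AGATAA with AGATAG as its variant, or TGATAA with TGATAG as its variant, found in 23.6% of coding-gene promoters of the same length. The NR5A1 match was AAGGTCA, found in 3.63%. A WT1 or EGR match was GTGGGCG or else GTGGGAG, found in 16.7%. The LHX or EMX homeodomain match was TAATTA, found in 4.24%. A TCF or LEF match was CTTTGAA or else CTTTGTT or else CTTTGAT, found in 10.8%. Amhr2 had 1 GATA match starting 199 bases before the start and 1 NR5A1 match at 231. Wnt4 had 1 WT1 or EGR match at 19, written CGCCCAC on the gene's strand. Nr2f2 and Lhx9, whose promoters are not shown, each had 1 GATA and 1 TCF or LEF match, in Nr2f2 overlapping each other, and the promoters of Rspo1, Emx2 and Irx3 had none. A match describes the letters in this window and is no evidence of binding.

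**Figure D2:**
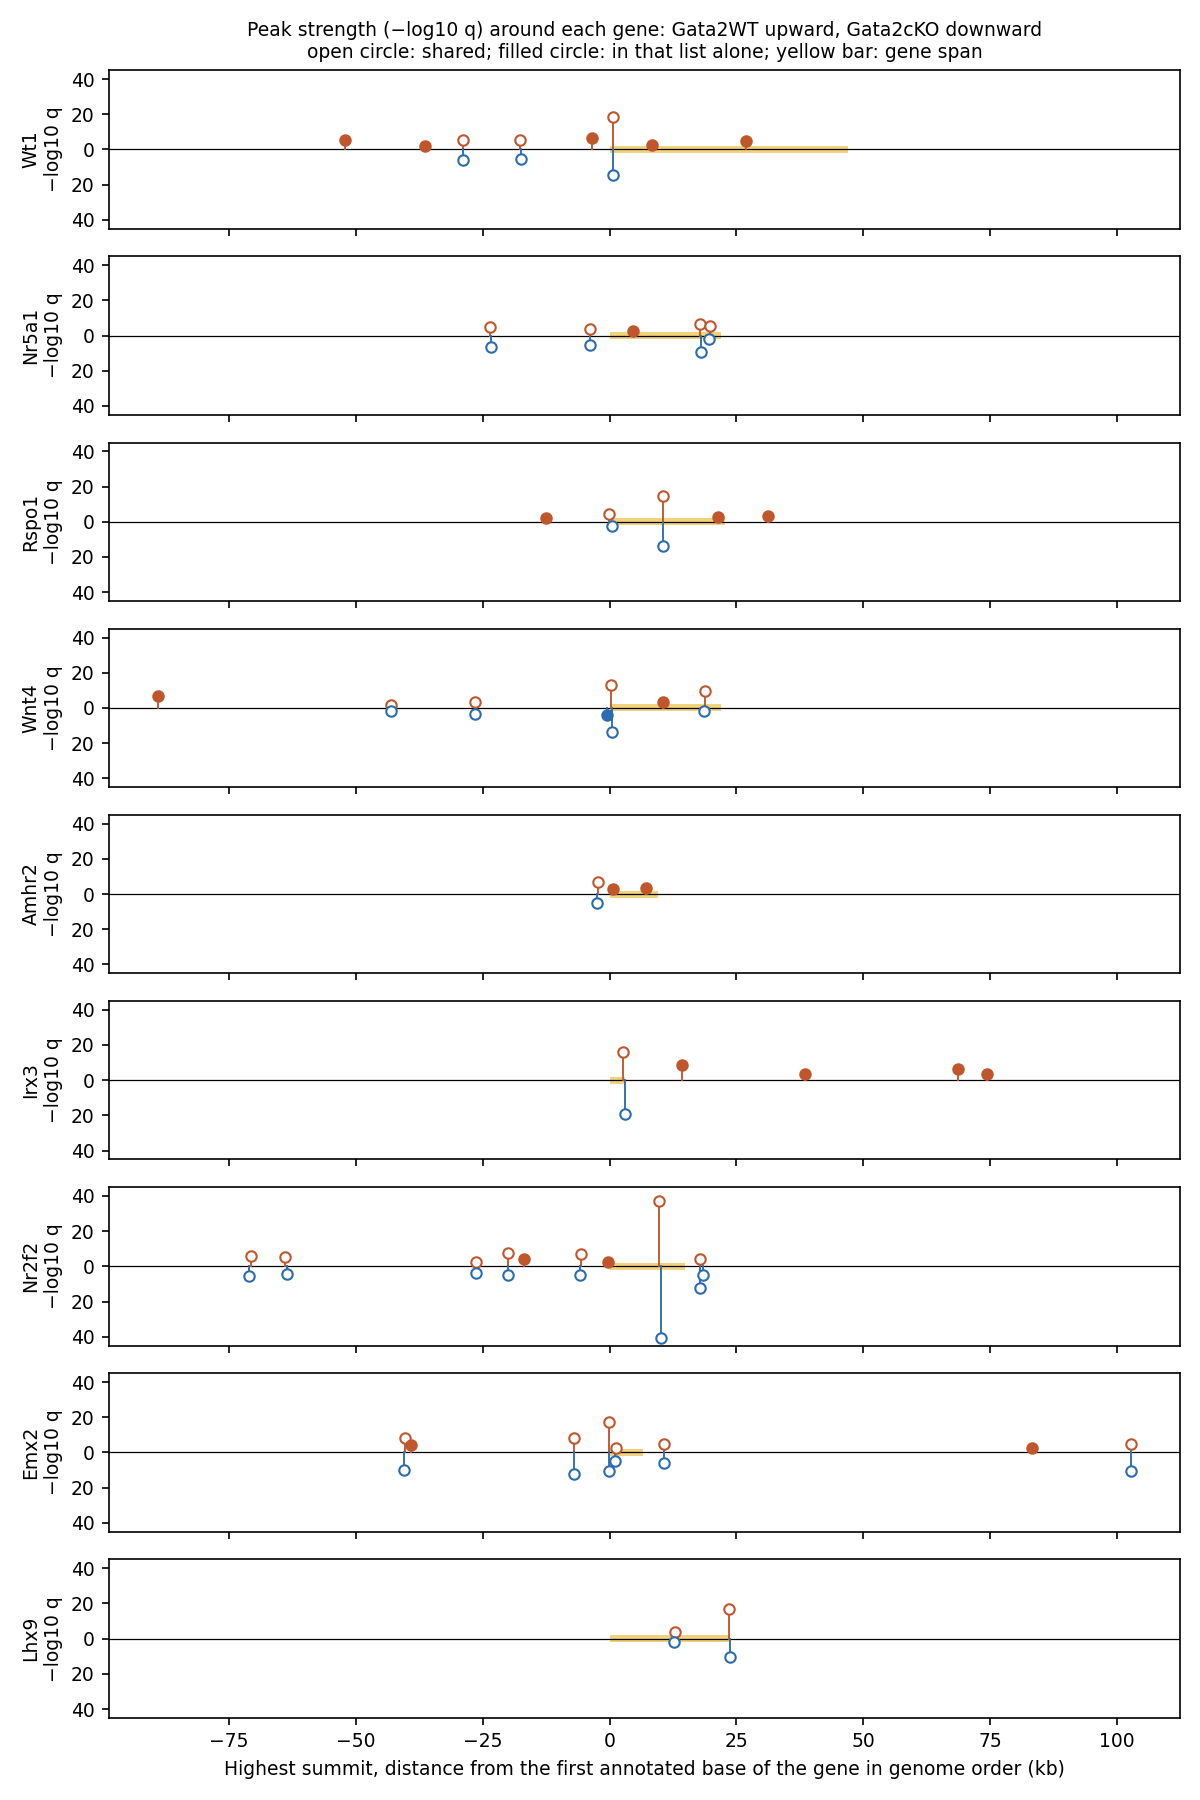
Position and strength of every peak at the 9 genes: x axis, distance of the highest summit from the first annotated base in genome order (kb); y axis, −log10 q, upward for Gata2WT and downward for Gata2cKO. Open circles are shared peaks, filled circles peaks of 1 list alone, and yellow bars the gene spans; filled orange circles stand at 8 of the 9 genes and the 1 filled blue circle lies just before Wnt4.

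Wt1, the zinc finger factor of coelomic epithelium and supporting cells, carried a shared peak near its first base and had 5 WT-only peaks, the most of the 9. The gene spans 105126529 to 105173614 on chromosome 2 (GRCm38). The gene-end peak, 105126315 to 105127813 in Gata2WT, reached a −log10 q of 18.3 (Gata2WT) and 14.7 (Gata2cKO), with 55 and 42 fragments at the summit. It is broad, 1499 bp with 3 summits in Gata2WT and 1441 bp with 1 in Gata2cKO. A pair of distal sites, with summits 28.9 and 17.6 kb before the first base in Gata2WT, was also shared, at 5.62 each in Gata2WT and at 6.02 and 5.18 in Gata2cKO.

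The WT-only sites of Wt1 lay on both sides of its first base. Before it were 105074306 to 105074801 (5.62), 105089643 to 105090290 (2.16) and 105122945 to 105123202 (6.24). Inside the gene were 105134541 to 105134967 (2.46) and 105153206 to 105153561 (4.82). The site 3.45 kb before the gene had 31 fragments at its summit on a local background of 9.10, the highest pileup of any WT-only peak of the 9 genes. It lies, as do 4 other Gata2WT peaks of Wt1, within 1 kb of the antisense RNA gene Wt1os, so the sites cannot be given to one gene or the other. Among 17082 coding genes with any peak, 2.39% had as many WT-only peaks as Wt1 or more.

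Nr5a1, the nuclear receptor SF-1 that drives gonad and adrenal formation and steroid synthesis, was the 1 gene of the 9 with no gene-end peak in either list. It lies at 38692656 to 38714542 on chromosome 2. No strand was given for it, so first and last base, in genome order, do not tell its promoter side from its 3′ side. A pair of shared sites sat inside the gene, with summits 4.08 and 2.12 kb from the last base in Gata2WT. The first, 38710283 to 38711135, reached a −log10 q of 6.38 (Gata2WT) and 9.46 (Gata2cKO). The second, 38711643 to 38712795, had 5.28 and 2.00, each with 3 summits in Gata2WT and 1 in Gata2cKO. With a window of 2 kb the second site would count as a gene-end peak in both lists, bringing the genes with one in both from 6 to 7. The sites 23.5 and 3.77 kb before the first base were shared as well, at 4.92 and 3.94 in Gata2WT and 6.71 and 5.62 in Gata2cKO, and 1 weak WT-only peak lay inside the gene, 38697174 to 38697561 (2.34).

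Emx2, a homeobox gene of the early urogenital ridge, had the same 6 shared sites in both lists plus 2 WT-only ones. The gene spans 59458690 to 59465357 on chromosome 19. The peak over the promoter shown above reached a −log10 q of 17.3 (Gata2WT) and 10.7 (Gata2cKO), with 50 and 34 fragments at the summit. A weaker gene-end peak inside the gene, 59459269 to 59459955 in Gata2WT, had 2.55 and 4.86. The other shared sites lay 40.4, 7.03, 3.98 and 96.1 kb from the gene in Gata2cKO, with 8.17, 8.15, 5.04 and 4.82 in Gata2WT and 10.2, 12.0, 5.74 and 10.6 in Gata2cKO. These values are not scaled between lists, so no change is read from them. Both gene-end peaks and the site 7.03 kb away lie within 1 kb of the noncoding gene Emx2os. Such sites cannot be given to one gene or the other. Of the WT-only peaks, 59419328 to 59419769 (4.43) lay 0.758 kb from a shared Gata2cKO peak, and 59541832 to 59542085 (2.62) lay 76.7 kb beyond the gene.

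Lhx9, the LIM homeobox gene needed for gonad formation, was the 1 gene of the 9 whose peaks were all shared. It lies at 138825186 to 138848839 on chromosome 1. Its gene-end peak, 138848253 to 138849114 in Gata2WT, reached a −log10 q of 17.1 (Gata2WT) and 10.7 (Gata2cKO), and its peak inside the gene 3.93 and 2.00. The start that RefSeq's promoter table gives for Lhx9 on the minus strand, 138842444, lay 6210 bp from the summit of the Gata2WT gene-end peak, which stood at the outermost annotated base.

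Rspo1 and Wnt4, the ovarian WNT signals, had WT-only peaks at both genes and the 1 cKO-only peak of the list. Rspo1, at 124986401 to 125009102 on chromosome 4, had 5 Gata2WT peaks of which 3 were WT-only, and 2 Gata2cKO peaks, both shared. Its strongest site was inside the gene, 124996400 to 124997105, with a −log10 q of 14.7 (Gata2WT) and 13.7 (Gata2cKO) and summits 4 bp apart. At the start of the gene the lists overlapped by only 39 bp: the Gata2WT peak, 124986150 to 124986530 (4.47), covered the whole promoter shown above, and the Gata2cKO peak, 124986492 to 124987029 (2.56), began 63 bp past its last base. The summits were 499 bp apart, so this site is shared by overlap but not when summits within 250 bp are required. The 3 WT-only peaks of Rspo1 were weak, with a −log10 q of 2.14 (12.6 kb before the gene), 2.71 (inside it) and 3.31 (8.49 kb after it).

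Wnt4, at 137277635 to 137299501 on chromosome 4, had 6 Gata2WT and 5 Gata2cKO peaks. Its shared gene-end peak, 137277730 to 137278617 in Gata2WT, reached a −log10 q of 13.1 (Gata2WT) and 13.5 (Gata2cKO), with the summit 337 and 402 bp inside the gene. The cKO-only peak, 137276607 to 137277342 (4.08), lay on the other side of the start, 0.388 kb from the nearest Gata2WT peak, with 17 fragments at its summit 525 bp before the first base. The promoter printed for Wnt4 thus lay between these peaks and under neither. The WT-only peaks were 137188491 to 137188806 (6.84), 89.0 kb before the gene, and 137287999 to 137288261 (3.50) inside it. A site inside the gene, 137296090 to 137296683 in Gata2WT, was listed at 9.66 in Gata2WT and 1.80 in Gata2cKO.

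Amhr2, the type II receptor for anti-Mullerian hormone, had a gene-end peak in the Gata2WT list alone. The gene spans 102445002 to 102454640 on chromosome 15. That peak, 102445474 to 102445792, reached a −log10 q of 3.07 and 14 fragments at its summit, 274 bp past the start given by RefSeq and thus after the promoter shown above. A second WT-only peak lay inside the gene, 102451928 to 102452424 (3.17). The 1 Gata2cKO peak was shared, 2.44 kb before the first base, at 6.90 in Gata2WT and 5.08 in Gata2cKO. A gene-end peak in both lists was found at 6 of these 9 genes and at 62.8% of all coding genes. One in the Gata2WT list only was found at 2 of the 9 (Amhr2 and Nr2f2) and at 2.29% of all coding genes, and the reverse at 0 of the 9 and at 1.30%. Neither list had one at Nr5a1 and at 33.6% of all coding genes.

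Irx3, the Iroquois homeobox gene of pregranulosa cells, had 1 shared peak over its start and 4 WT-only peaks in the stretch beyond it. The gene is short, 91798511 to 91801654 on chromosome 8, on the minus strand. Its gene-end peak, 91800783 to 91802179 in Gata2WT, reached a −log10 q of 16.0 (Gata2WT) and 19.2 (Gata2cKO), with 52 fragments at the summit in both. The WT-only peaks lay upstream at 91812508 to 91812854 (8.36), 91836760 to 91837015 (3.27), 91866950 to 91867318 (6.34) and 91872598 to 91873095 (3.31). The first of them, 11.1 kb from the gene, was the strongest WT-only peak of the 9 genes, and 43.8% of all Gata2WT peaks were stronger. All 4 lie within 1 kb of the noncoding gene Irx3os, and the nearest Gata2cKO peak to each was 10.3 to 70.4 kb away.

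Nr2f2, the gene of COUP-TFII in gonadal stroma, had the most peaks of the 9 and the strongest one. It lies at 70351946 to 70366746 on chromosome 7, on the minus strand, with 9 Gata2WT and 8 Gata2cKO peaks. The strongest site was inside the gene, 70361391 to 70362351 in Gata2WT, with a −log10 q of 37.2 (Gata2WT) and 40.6 (Gata2cKO) and 73 and 70 fragments at the summit. Of the list's peaks, 17.1% were stronger in Gata2WT and 14.3% in Gata2cKO. A site 3.08 kb upstream of the gene was 1 peak of 1014 bp in Gata2WT (4.38) and 2 peaks in Gata2cKO (12.4 and 5.01), which is why 30 shared Gata2WT peaks stand against 31 shared Gata2cKO peaks. The other 5 shared sites lay 5.70 to 70.6 kb beyond the 3′ end, at 2.74 to 7.77 in Gata2WT and 3.59 to 5.52 in Gata2cKO. The WT-only gene-end peak, 70351401 to 70351765 (2.71), was at that 3′ end and not at the promoter. The other WT-only peak was 70335026 to 70335343 (4.11). It and all but the nearest of the 5 shared sites beyond the 3′ end lie within 1 kb of the noncoding gene Gm29683. The site upstream of the gene lies within 1 kb of the noncoding gene B130024G19Rik.

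Across the 9 genes the WT-only peaks were alike in form. All 21 had 1 summit, their median width was 365 bp against 639 bp for the shared Gata2WT peaks, and their median summit pileup was 13 fragments (range 10 to 31) against 20.0. Over all WT-only peaks the medians were 359 bp and 11 fragments, so this form is not particular to the 9 genes. The −log10 q of the 21 ran from 2.14 to 8.36 with a median of 3.31, against 2.84 for all WT-only peaks. By place, 2 of 9 gene-end peaks, 6 of 12 peaks inside genes and 13 of 30 distal peaks were WT-only, against 7.17%, 37.6% and 35.2% over all coding genes. Of the Gata2cKO peaks, 1 of 8 at gene ends, 0 of 6 inside genes and 0 of 18 distal ones were cKO-only, against 4.51%, 27.4% and 25.3%. The shared peaks were weak for the list too, with a median of 5.78 in Gata2WT against 11.7 for all shared peaks. Gene-end peaks of the 9 genes had a median of 13.1 in Gata2WT and 10.7 in Gata2cKO, against 35.2 and 29.1 for all gene-end peaks.

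Weak peaks were more often in 1 list alone, so the counts were also set out by strength. Below a −log10 q of 3, 7 of 10 Gata2WT peaks of the 9 genes were WT-only (70.0%) against 68.2% of all peaks of that strength. From 3 to 5 it was 9 of 16 (56.2%) against 47.4%, from 5 to 10 it was 5 of 18 (27.8%) against 20.5%, and at 10 and over 0 of 7 against 1.30%. Each interval took in the share of all peaks. At the list's own shares for these strengths, 51 peaks would hold 18.2 WT-only peaks, close to the 21 found.

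The count of cKO-only peaks was set out in the same way, on few peaks per band. Below 3, 0 of 5 Gata2cKO peaks of the 9 genes were cKO-only (interval up to 43.4%) against 53.3% of all such peaks. From 3 to 5 it was 1 of 6 (16.7%, interval 3.01 to 56.4) against 31.7%. From 5 to 10 it was 0 of 10 (interval up to 27.8%) against 12.5%, and at 10 and over 0 of 11 (up to 25.9%) against 0.802%. Only the interval below 3, on 5 peaks, left out the share of all peaks. At the list's own shares, 32 peaks would hold 5.91 cKO-only peaks where 1 was found. The count rose to 6 (18.8%, against 27.9% of all Gata2cKO peaks) when 50% of each peak had to overlap and to 7 (21.9% against 26.9%) when summits within 250 bp were required. With a −log10 q of at least 5 required in both lists it was 5 of 21, or 23.8%, which is above the share of all peaks under that rule and so turns the direction.

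**Figure D3:**
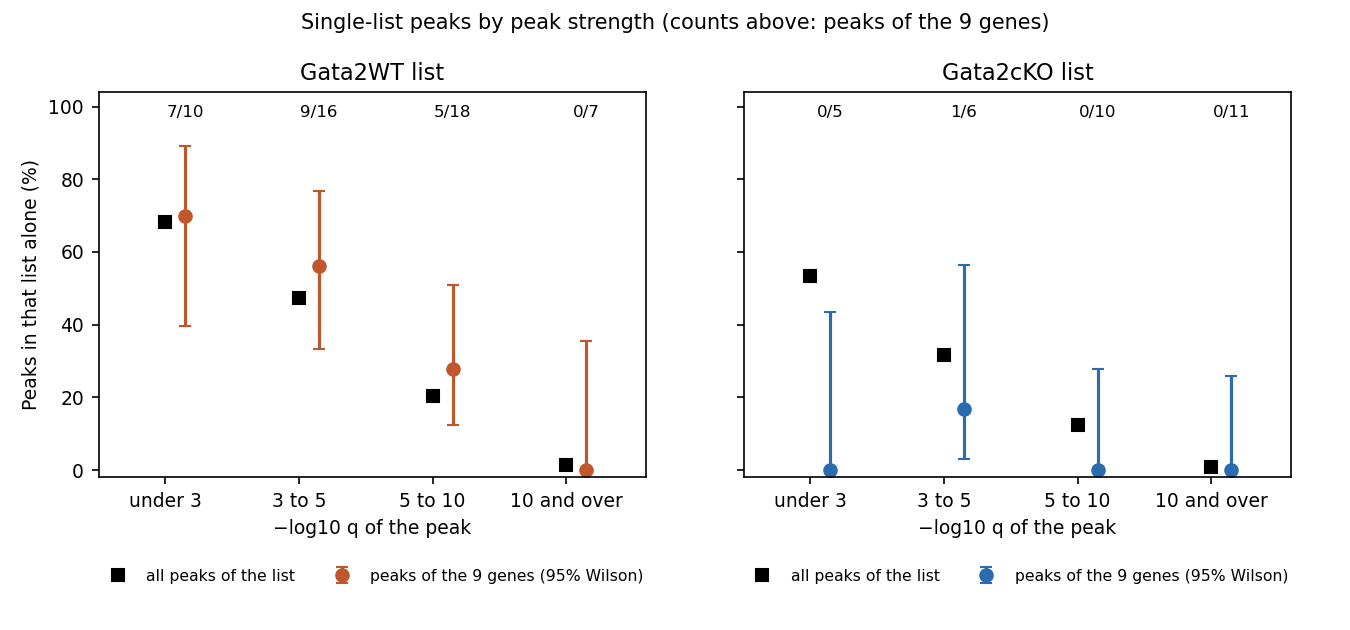
Share of peaks found in 1 list alone (y axis, %) by peak strength (x axis, −log10 q) in the Gata2WT list (left) and the Gata2cKO list (right), for all peaks (black squares) and the peaks of the 9 genes (circles, with 95% Wilson intervals). The circles for Gata2WT follow the squares, 70.0% against 68.2% in the weakest band, and those for Gata2cKO lie at 0% or 16.7%.

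The same counts were taken over other gene lists, and they do not assign the 9 genes to a cell type. Of 17 further genes of the bipotential gonad and pregranulosa cells, 15 carried gene-end peaks in both lists. Gata4 and Runx1 had one in neither, but had peaks elsewhere (7 and 5 in Gata2WT, 6 and 7 in Gata2cKO). The strongest gene-end peaks of the 17 genes were at Insr (91.9 in Gata2WT and 70.7 in Gata2cKO), the insulin receptor, Cbx2 (61.0 and 45.8), a Polycomb protein of sex determination, and Cited2 (51.7 and 55.6), a coactivator in gonad formation. The 17 genes had 23 WT-only of 81 peaks (28.4%) and 13 cKO-only of 73 (17.8%), near the shares of all peaks. WT-only peaks outnumbered cKO-only peaks at 10 of these 17 genes and the reverse held at 1. The interval of their WT-only share, 19.7 to 39.0%, overlapped that of the 9 genes, and the difference between the lists was not tested. Among 9 Sertoli cell genes, 2 (Fgf9 and Ptgds) had a gene-end peak in Gata2WT alone (22.8 and 1.63). That is the same count as for the 9 genes described here, against 2.29% of all coding genes. The Sertoli genes had 15 WT-only of 44 peaks (34.1%) and 5 cKO-only of 36 (13.9%), against 28.5% and 19.7% of all peaks. WT-only peaks outnumbered cKO-only peaks at 5 Sertoli genes and the reverse held at 0.

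Markers of other cells lay on both sides of the shares of all peaks, 28.5% WT-only and 19.7% cKO-only. The lists held from 7 to 72 Gata2WT peaks, and nearly all their Wilson intervals took in the share of all peaks. The exception was the WT-only share of stroma, with an interval of 6.40 to 26.7%. The other lists were thus not told apart from all peaks. Stroma had 6 WT-only of 44 peaks (13.6%) and 7 cKO-only of 47 (14.9%), surface epithelium 4 of 18 and 5 of 19, steroidogenic cells 3 of 20 and 2 of 19, and endothelium 10 of 40 and 4 of 35. Macrophage and erythroid genes had 0 of 7 and 3 of 11, germ cell genes 23 of 72 (31.9%) and 12 of 62 (19.4%), and housekeeping genes 6 of 27 and 3 of 25. The housekeeping gene Actb had no gene-end peak in either list, but 4 peaks elsewhere in each. No peak of either list was given to the steroid enzymes Cyp17a1 and Hsd3b1, to Msln, Emcn, Ptprc, Adgre1 or Hba-a1. The part of any of these cells in the peaks of the 9 genes was not tested.

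**Figure D4:**
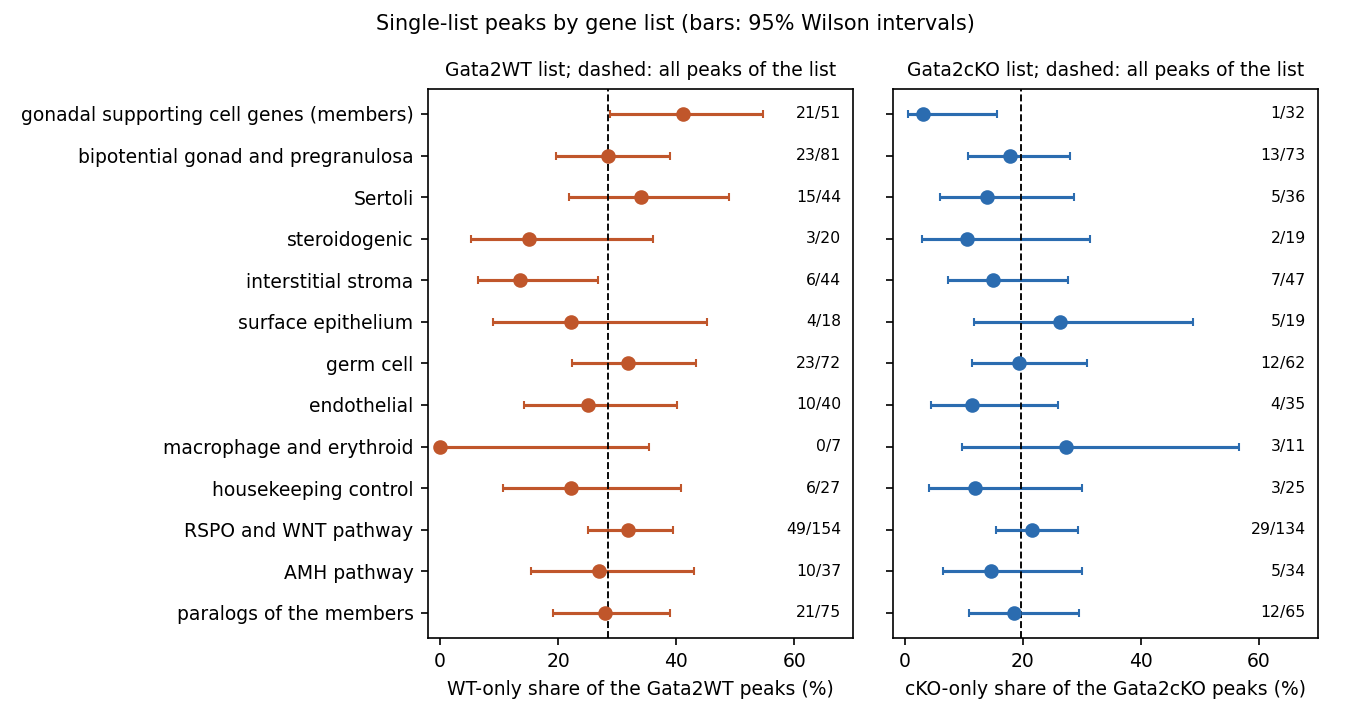
Share of WT-only peaks among Gata2WT peaks (left) and of cKO-only peaks among Gata2cKO peaks (right) for the 9 genes (top row) and 12 other gene lists (x axis, %; bars, 95% Wilson intervals; dashed line, all peaks of the list). The 9 genes stand at 41.2% and 3.12%, against 28.4% and 17.8% for the further gonad and pregranulosa genes.

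For the pathways and relatives of the 9 genes, the shares of single-list peaks lay near those of all peaks, while gene-end peaks in both lists were found at more than the 62.8% of all coding genes. Of 25 genes of R-spondin and WNT signalling, 24 carried one at a gene end in both lists and Axin2, a WNT feedback target, in neither; 49 of 154 Gata2WT peaks were WT-only (31.8%) and 29 of 134 Gata2cKO peaks cKO-only (21.6%). The strongest gene-end peaks were at Lgr4, an R-spondin receptor (96.0 and 69.6), Porcn, which lipidates WNT proteins (86.9 and 94.9), and Fzd1, a WNT receptor (74.6 and 69.8). All 8 genes of the AMH pathway carried one in both lists, with 10 of 37 peaks WT-only and 5 of 34 cKO-only, the strongest at Smad4 (84.1 and 78.9). Of 13 paralogs, 10 carried one in both lists and Nr5a2, Irx2 and Irx5 in neither. The paralogs had 21 WT-only of 75 peaks (28.0%) and 12 cKO-only of 65 (18.5%).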

How the data were processed

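ATAC-seq was made from 4 samples (2 Gata2WT, 2 Gata2cKO), grouped by labelled genotype. The submitters' processing notes name MACS2 2.2.6, the build GRCm38 (mm10), Bowtie2 2.3.5.1, Trimmomatic 0.39, Picard 2.23.0, SAMtools and bedtools. Parameters, the Tn5 shift and the way samples were combined are not given there, and a deeper sample may weigh more in its list. The deposited fold enrichment is a ratio to the local background; the deposited −log10 p and −log10 q are of the summit, and the deposited score is 10 times the −log10 p; the lowest −log10 p was 3.00.

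Rows with the same interval were merged to the row of highest −log10 p, on the 19 autosomes and X. The pileup was solved from fold and −log10 p, and came out whole within 0.001 for 100% of peaks of both lists. Its unit is called fragments here, but whether the peak caller counted fragments or read ends is not given. Overlap was computed in Python 3.11.15 and checked with bedtools 2.31.1. Distal peaks were placed by their highest summit. Genes and promoters came from RefSeq (GRCm38.p6); all 9 genes and all 139 entries of the 12 other lists matched by symbol. The steps were tested on simulated data. Intervals are Wilson, at 95%. The named genes were the 9, their single-list, gene-end and strongest peaks, and in other lists those with a gene-end peak in 1 list or neither and the 3 strongest at a gene end; the text gives a part. Members and lists were chosen with earlier results of these data known, so the lean to Gata2WT is no independent support for it. Alternatives covered overlap, threshold, list length, window, distance, gene types and merging of rows. The authors' threshold sets the depth limit: the lowest listed summit pileup was 8 fragments in each list.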

Additional observations from a re-analysis of the deposited data

How the results depend on the processing

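The 12 alternatives run recount the same peaks and are not independent of each other. None matched peaks by strength. At the list's own shares by strength, the 9 genes would hold 18.2 WT-only peaks, where 21 were found. The share of WT-only peaks among their Gata2WT peaks lay above that of all peaks in each alternative, from 20.0% to 51.0%. The share of cKO-only peaks lay below that of all peaks in 11 of 12. The exception was a −log10 q of at least 5 in both lists, with 5 of 21 cKO-only (23.8%, above the share of all peaks) and 9 of 25 WT-only; 46 peaks were left. Another alternative, chosen after seeing the data, set peaks of at least 5 against all peaks of the other list. Then 5 of 25 were WT-only (20.0%, against 7.61% of all such Gata2WT peaks). Of the Gata2cKO peaks, 0 of 21 were cKO-only (against 4.74% of all such peaks), again with 46 peaks left. With a distal limit of 20 kb 13 were WT-only; with the nearest end of any gene, noncoding ones included, 8 of 25 Gata2WT peaks were WT-only (32.0% against 28.5% of all), with 44 peaks in both lists together. The cKO-only count was 6 with a reciprocal overlap of 50%, 7 with summits within 250 bp and 2 with equal list lengths. The distal limit, the nearest-end rule and the stricter threshold keep fewer peaks by construction. A threshold on both lists also removes weaker overlapping peaks of the other list. The cause of the other differences was not tested. The number of genes with a gene-end peak in both lists stayed within 5 to 7. No paired analysis was possible because each deposited list combines its 2 samples; leaving out a replicate was not possible for the same reason. Depth limits weak sites: the WT-only peaks had a median summit pileup of 13 fragments (range 10 to 31), where the lowest listed was 8.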
